A study of Mus musculus with 3 samples.

Results

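The genes described here are 51 genes of mitosis and the kinetochore, taken as a list of names with their probes on a mouse expression array. The rule sets no threshold on a measured value, although the list was drawn up with earlier results of these data known. Probes were found for 50 of them, 74 probes in all, among 18350 genes that could be named on the array. No probe could be named for Prc1, which encodes a crosslinker of the central spindle. RNA of 3 cultures was measured, with 1 array each. Neurogenic cellulates were C2C12 cells that had been fused into myotubes, taken apart with myoseverin, given the GSK-3 inhibitor BIO for 2 days and then kept 7 days in neurogenic medium after 250 nM reversine, with 1.5 µM all-trans retinoic acid. BIO cellulates were the same preparation after BIO alone. Untreated C2C12 myoblasts, a mouse line that divides until its serum is reduced, were the third. Both cellulate cultures had been differentiated for 8 days in 2% horse serum and had received 10 µM AraC, a DNA synthesis inhibitor that kills dividing cells, between days 2 and 4. The labels give BIO at 2.5 µM in one place and 10 µM in another, and myoseverin at 20 µM or 30 µM. Neither untreated myotubes nor cellulates without BIO were analysed here, and the effects of differentiation, AraC, myoseverin and BIO cannot be told apart. Between neurogenic and BIO cellulates, the effects of reversine, retinoic acid, the neurogenic medium and the added time in culture cannot be told apart either.

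In mitosis, the condensin complexes compact chromosomes, kinetochores assembled on the centromere attach them to spindle microtubules, and the spindle checkpoint holds back anaphase until every chromosome is attached. The anaphase promoting complex, activated by Cdc20, then marks securin and mitotic cyclins for destruction, separase cuts cohesin, and the central spindle directs cytokinesis. Most of these genes are transcribed late in the cell cycle, and myoblasts that fuse into myotubes leave the cycle for good.

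All levels below are log2 signals relative to the array's own 75th percentile, so a level of 0 is at that percentile, and a difference of 1 is 2-fold. With 1 array in each group there is no error between cultures and no test. Probes spotted repeatedly on an array gave the measurement error, from their spots well above background. For 95% of such spots it amounts to at most a 1.40-fold change when BIO cellulates are set against myoblasts. The same limit was 1.32-fold between the cellulate cultures and 1.35-fold between neurogenic cellulates and myoblasts. These limits do not cover spots that were not well above background, and each probe of the mitosis genes was spotted once. Between 45.7% and 50.7% of 43379 spots were well above background on each array. The lowest such level was -2.57 for neurogenic cellulates, -2.73 for BIO cellulates and -3.73 for myoblasts. A gene that was dim (not well above background) on a single array of a pair has only a bound, written "at least". All 7 markers of differentiated muscle were well above background on every array, with summed levels of 11.80 in neurogenic cellulates, 12.20 in BIO cellulates and 8.06 in myoblasts. Of the myoblast markers, Pax7 and Myod1 were well above background on every array and Myf5 on none. The summed level of these 3 markers was 0.95 in neurogenic cellulates, 1.32 in BIO cellulates and 0.88 in myoblasts. Neuronal markers were above background for 4, 4 and 3 of 7 genes on the neurogenic, BIO and myoblast arrays (summed levels 2.58, 2.62 and 3.43), with Neurod1 and Nefl dim on all. Glial markers were above background for 4 of 5 on each array (0.71, 0.93 and 0.85) and fibroblast markers for 3 of 4 (10.43, 10.71 and 11.06). The part of these cell types in the results below was not tested.

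BIO cellulates had much less RNA of most mitosis genes than myoblasts. Of 40 members that could be compared, 31 were at least 2-fold lower and 2 at least 2-fold higher, against 6.02% lower and 11.3% higher among all 12841 genes compared. The median log2 ratio of the members was -2.39, and that of all genes was 0.00. Where both arrays lay well above background, 28 of 31 members were lower and 1 higher, against 6.14% and 8.42% of all such genes. The remaining 7 of the 40 lay within 2-fold or had a bound too small to place, and 10 were well above background on neither array. In bulk RNA, fewer dividing cells and less RNA per cell cannot be told apart.

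Neurogenic cellulates stayed close to BIO cellulates for most members and differed upward for a few dim ones. Of 40 members compared, 0 were at least 2-fold lower and 6 were at least 2-fold higher, against 1.79% and 4.17% of all 12250 genes. With both arrays well above background, 0 of 31 were lower and 1 higher, against 1.4% and 2.44% of such genes. The members' median log2 ratio was 0.11 and that of all genes -0.17. Against myoblasts, 30 of 44 members in neurogenic cellulates were at least 2-fold lower and 10 at least 2-fold higher, against 10.1% and 12.2% of all 12875 genes. With both arrays well above background, 28 of 34 were lower and 5 higher, against 11.0% and 9.36%. The medians over all compared genes were -2.08 for the members and -0.06 for all genes. The comparisons share arrays, so their values are not independent of each other.

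**Figure D1:**
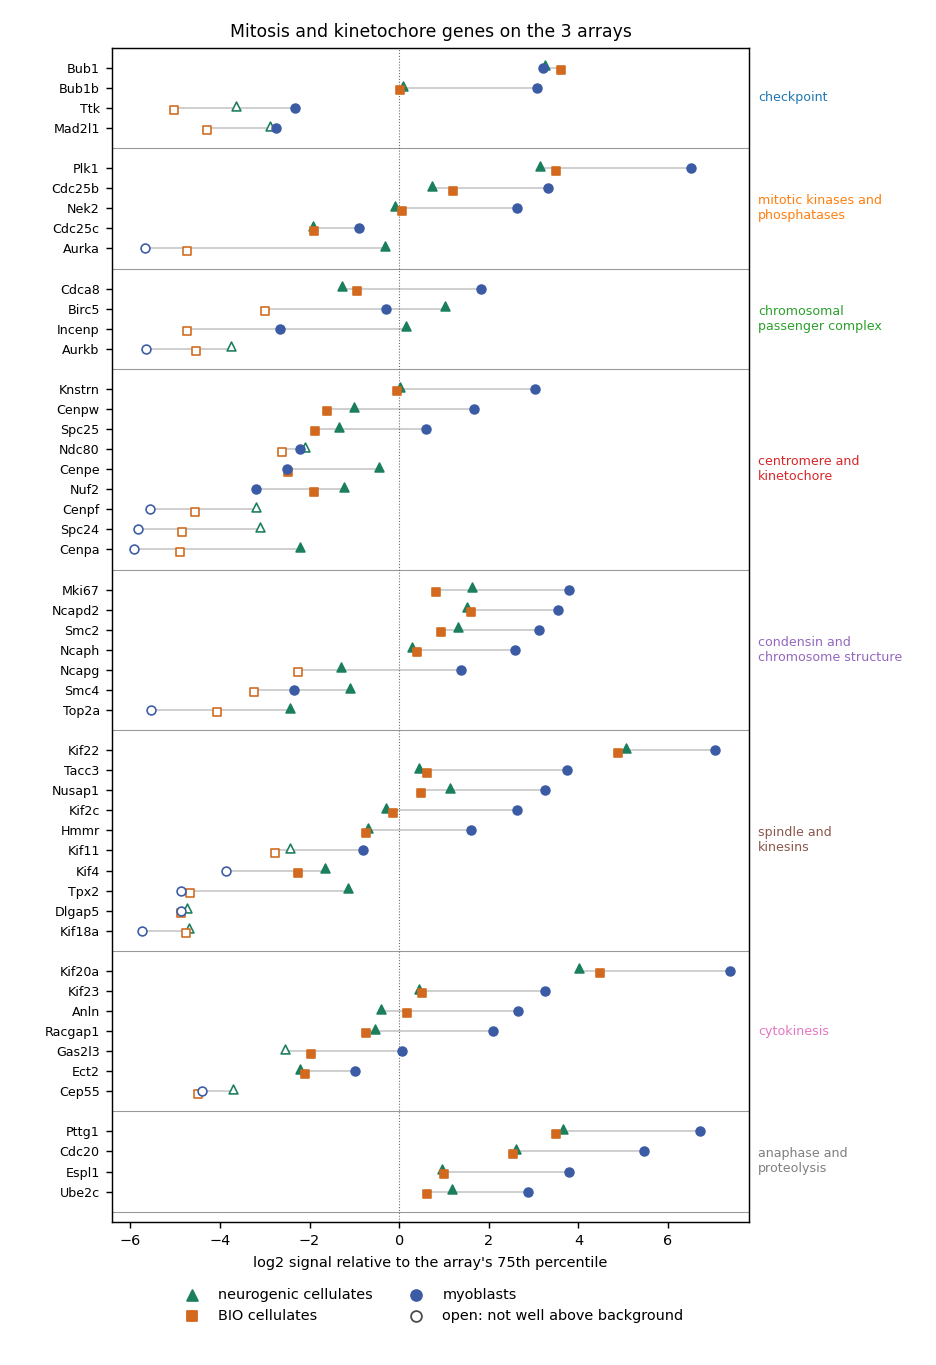
Level of each member on the 3 arrays (x axis, log2 signal relative to the array's 75th percentile; 1 row per gene, grouped by role). Triangles are neurogenic cellulates, squares BIO cellulates and circles myoblasts, and open symbols were not well above background. For most genes with a high myoblast level, such as Kif20a at 7.39, both cellulate symbols sit together far to the left, whereas Aurka, Birc5, Incenp and Tpx2 are highest in neurogenic cellulates.

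Members were also split by their mean level over the 3 arrays. That mean includes the myoblast level, so genes high in myoblasts alone, such as Racgap1, Hmmr and Kif2c, count among the brighter ones, and the split is a description that is not independent of the ratio. Among the 23 members whose mean level over the 3 arrays lay above the 75th percentile, 22 were at least 2-fold lower in BIO cellulates than in myoblasts. Their log2 ratios lay between -3.20 (Pttg1) and -1.94 (Ncapd2), and Bub1 was the exception. Of all 7010 genes with such a mean level, 7.52% were at least 2-fold lower. In neurogenic against BIO cellulates 0 of the 23 differed by 2-fold, and their ratios ran from -0.59 to 0.80. Such differences were rare among all 7009 genes with such a mean level too, with 1.67% lower and 1.91% higher. Among members with a mean below the 75th percentile, 9 of 17 were at least 2-fold lower and 2 higher in BIO cellulates than in myoblasts, while 4.22% of all such genes were lower and 19.3% higher. All 6 members at least 2-fold higher in neurogenic than in BIO cellulates came from this dimmer set, as 6 of 17, beside 7.19% of all such genes. For 5 of the 6 the BIO array was dim, so they were compared only because the neurogenic array was well above background. With both arrays well above background, 1 of 31 members was higher, against 2.44% of such genes.

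**Figure D2:**
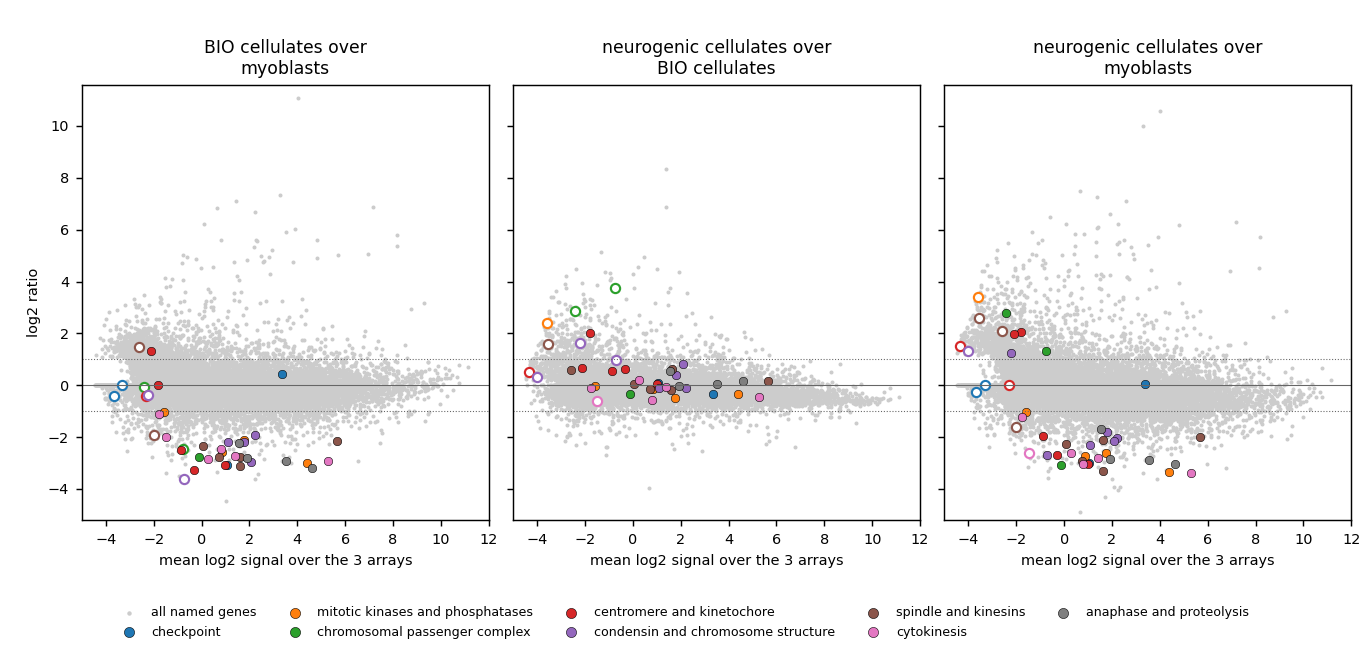
Log2 ratio (y axis) against the mean log2 signal over the 3 arrays (x axis) for each comparison. Grey points are all named genes compared, coloured points are members by role, open ones are bounds, and dotted lines mark 2-fold. Apart from Bub1, members with a mean above 0 sit between -3.20 and -1.94 for BIO cellulates against myoblasts and near 0 in the middle panel, and the members above the upper line in the middle panel all have a mean below 0.

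The genes that trigger anaphase were the most uniform group. Pttg1 encodes securin, which holds separase inactive, and had a level of 3.65 in neurogenic cellulates, 3.50 in BIO cellulates and 6.70 in myoblasts. It was 9.18-fold lower in BIO cellulates than in myoblasts. Espl1, the separase gene, had levels of 0.96, 0.99 and 3.79 in neurogenic cellulates, BIO cellulates and myoblasts, 6.98-fold lower in BIO cellulates than in myoblasts. Cdc20, the activator of the anaphase promoting complex, had levels of 2.60, 2.54 and 5.47 in the same order, 7.62-fold lower in BIO cellulates. Both cellulate cultures were lower than myoblasts and alike for these 3 genes, and neurogenic over BIO log2 ratios lay between -0.03 and 0.15. Ube2c, the ubiquitin-conjugating enzyme of that complex, had a level of 1.19 in neurogenic cellulates, 0.63 in BIO cellulates and 2.87 in myoblasts. It was 4.72-fold lower in BIO cellulates than in myoblasts, and its neurogenic over BIO ratio of 0.56 was among the higher ones of the bright members.

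Checkpoint genes gave 1 large difference and 3 small or unmeasurable ones. Bub1b encodes BubR1, a component of the mitotic checkpoint complex, and had levels of 0.09, 0.01 and 3.07 in neurogenic cellulates, BIO cellulates and myoblasts. Ttk, the Mps1 kinase gene, and Mad2l1, which encodes the Mad2 inhibitor of Cdc20, were well above background in myoblasts alone. Their myoblast levels of -2.32 and -2.75 were so close to background that the bounds were 1.33-fold lower for Ttk in BIO cellulates and no fold for Mad2l1. Bub1, a kinase that recruits the other checkpoint proteins, had a level of 3.26 in neurogenic cellulates, 3.61 in BIO cellulates and 3.20 in myoblasts by its brighter probe. Its other probe had levels of 0.74, 0.17 and 2.77, a BIO minus myoblast difference of -2.60 where the brighter probe gave 0.41. Both Bub1 probes were well above background on all 3 arrays, so the array does not settle a direction for this gene.

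Among the mitotic kinases and phosphatases, Plk1, the polo-like kinase needed at the centrosome, kinetochore and midbody, had levels of 3.15 in neurogenic cellulates, 3.50 in BIO cellulates and 6.51 in myoblasts. It was 10.3-fold lower in neurogenic cellulates and 8.10-fold lower in BIO cellulates than in myoblasts. Nek2, a centrosome-splitting kinase, had levels of -0.10, 0.06 and 2.63 in neurogenic cellulates, BIO cellulates and myoblasts. Cdc25b, a phosphatase that activates Cdk1, had levels of 0.73, 1.21 and 3.33. For these 3 kinase and phosphatase genes the cellulates again lay close together and well below myoblasts by the probe used. A further Cdc25b probe, well above background on the neurogenic and myoblast arrays, went the other way. Its neurogenic minus myoblast difference was 1.17, where the probe used gave -2.60. Cdc25c, a related phosphatase, differed less, with levels of -1.93, -1.91 and -0.89 and a fold of 2.02 between BIO cellulates and myoblasts. Aurka ran the other way. This spindle pole kinase gene had a level of -0.32 in neurogenic cellulates, where alone it was well above background, against dim levels of -4.74 in BIO cellulates and -5.68 in myoblasts. The bounds were at least 5.31-fold higher than in BIO cellulates and at least 10.6-fold higher than in myoblasts.

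The chromosomal passenger complex, which corrects faulty attachments and later acts in cytokinesis, gave members on both sides. Cdca8, which encodes borealin, had levels of -1.27 in neurogenic cellulates, -0.93 in BIO cellulates and 1.82 in myoblasts, 6.76-fold lower in BIO cellulates than in myoblasts. Birc5, the survivin gene, had a level of 1.02 in neurogenic cellulates, a dim -3.00 in BIO cellulates and -0.29 in myoblasts. It was thus at least 5.44-fold lower in BIO cellulates than in myoblasts and 2.48-fold higher in neurogenic cellulates than in myoblasts. The call as lower in BIO cellulates was lost with normexp (log2 ratio -0.87), and the call as higher in neurogenic cellulates with scaling to the array median. Incenp, the scaffold of the complex, had a level of 0.15 in neurogenic cellulates, against a dim -4.73 in BIO cellulates and -2.66 in myoblasts. Incenp was at least 7.36-fold higher in neurogenic than in BIO cellulates and 6.97-fold higher than in myoblasts. The kinase gene Aurkb was dim on all 3 arrays. Of the 3 measured subunits of the same complex, 2 were therefore highest in neurogenic cellulates, and Cdca8 was lowest there by its brighter probe and highest there by the other.

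Centromere and kinetochore genes were the most divided role. Cenpw, which helps to build the constitutive centromere complex, had levels of -1.0 in neurogenic cellulates, -1.61 in BIO cellulates and 1.68 in myoblasts, 9.75-fold lower in BIO cellulates than in myoblasts. Knstrn, a spindle adaptor at kinetochores, had levels of 0.01, -0.05 and 3.03. Within the 4-gene Ndc80 complex, which binds microtubules directly, Spc25 had levels of -1.35, -1.89 and 0.60 and was 5.63-fold lower in BIO cellulates than in myoblasts. Its partner Nuf2 had levels of -1.24 in neurogenic cellulates, -1.90 in BIO cellulates and -3.20 in myoblasts. Nuf2 was 3.89-fold higher in neurogenic cellulates and 2.46-fold higher in BIO cellulates than in myoblasts, opposite to Spc25, by a probe near background in myoblasts. Both Nuf2 calls were lost with normexp (log2 ratios 0.77 and 0.73), and the call in BIO cellulates also with quantile normalisation or scaling to the array median. Genes dim on both the BIO and the myoblast array had a median difference of 1.01 (n = 5475), and the Nuf2 ratio for these arrays was 1.30. Genes dim on both the neurogenic and the myoblast array had a median difference of 1.14 (n = 5441). The part of such differences in the calls of members near background as higher than in myoblasts was not tested. Ndc80 could be measured on the myoblast array alone, at -2.22, with a bound of 1.32-fold lower in BIO cellulates, and Spc24 was dim on every array. Cenpe, a kinesin that carries chromosomes to the spindle middle, had levels of -0.45, -2.47 and -2.49, 4.07-fold higher in neurogenic than in BIO cellulates. The histone variant gene Cenpa, which marks the centromere, was well above background in neurogenic cellulates alone, at -2.22. It was at least 2.85-fold higher there than in myoblasts. Both Cenpf probes were dim on every array.

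The condensin genes Ncapd2, Ncaph, Ncapg and Smc2 were lower in both cellulate cultures by the probe used. Where a gene had several, that was the probe with the highest mean, which includes the myoblast level. In BIO and neurogenic cellulates, the other Ncapd2 probe differed from myoblasts by 0.17 and 0.87. A further Smc2 probe measured on all 3 arrays differed by -1.92 and -1.64. The other Ncapg probe was dim except in neurogenic cellulates. Ncapd2, Ncaph and Ncapg encode the non-SMC subunits of condensin I. Ncapd2 had levels of 1.51 in neurogenic cellulates, 1.60 in BIO cellulates and 3.54 in myoblasts, and Ncaph had levels of 0.28, 0.40 and 2.59. Ncapg had levels of -1.29, a dim -2.25 and 1.39, at least 12.4-fold lower in BIO cellulates than in myoblasts, the lowest ratio of any member in that comparison. Smc2, 1 of the 2 ATPase subunits, had levels of 1.31, 0.92 and 3.11, 4.56-fold lower in BIO cellulates. Smc4, the other ATPase subunit, had a level of -1.09 in neurogenic cellulates, a dim -3.24 in BIO cellulates and -2.36 in myoblasts. Smc4 was at least 3.12-fold higher in neurogenic than in BIO cellulates and 2.40-fold higher than in myoblasts, unlike its partner. Mki67, a chromosome surface protein widely used as a proliferation marker, had levels of 1.63, 0.83 and 3.79, with the highest neurogenic over BIO ratio of the brighter members at 0.80. By its brighter probe Top2a, which untangles sister DNA, was dim except in neurogenic cellulates, where its level was -2.43, at least 2.46-fold higher than in myoblasts. The other Top2a probe was dim on every array. The calls of Smc4, Cenpa and Top2a as higher in neurogenic cellulates than in myoblasts were lost with quantile normalisation, normexp or scaling to the array median.

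Spindle genes repeated this pattern. Kif22, a chromosome-arm kinesin, had levels of 5.05 in neurogenic cellulates, 4.89 in BIO cellulates and 7.04 in myoblasts. Tacc3, a microtubule-bridging protein, had levels of 0.44, 0.63 and 3.74 and was 9.85-fold lower in neurogenic cellulates than in myoblasts. Nusap1, which bundles spindle microtubules, had levels of 1.13, 0.48 and 3.25. All 3 were at least 2-fold lower in both cellulate cultures than in myoblasts. The depolymerising kinesin Kif2c (-0.29, -0.13 and 2.62) and the spindle and hyaluronan-binding protein Hmmr (-0.69, -0.74 and 1.60) behaved alike. Kif11, the motor that separates the poles, was measured in myoblasts alone, at -0.81, and was at least 3.80-fold lower in BIO cellulates. With normexp its log2 ratios against myoblasts were -0.71 in neurogenic cellulates and -0.57 in BIO cellulates, and both calls were lost. Tpx2, the activator of the Aurka kinase, resembled Aurka itself, with a level of -1.15 in neurogenic cellulates against dim levels of -4.66 in BIO cellulates and -4.86 in myoblasts. It was at least 3.01-fold higher in neurogenic than in BIO cellulates. The chromokinesin Kif4 had levels of -1.66, -2.27 and a dim -3.85 by its brighter probe. It was at least 4.21-fold higher in neurogenic cellulates and at least 2.77-fold higher in BIO cellulates than in myoblasts. The other Kif4 probe was dim on every array. The 2-fold call of Kif4 in BIO cellulates against myoblasts was lost with quantile normalisation, normexp or scaling to the array median, and that in neurogenic cellulates against myoblasts with normexp (log2 ratio 0.80). Kif18a and Dlgap5 were dim on every array.

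By the probe used, 6 of 6 measured cytokinesis genes were at least 2-fold lower in each comparison with myoblasts, Gas2l3 in neurogenic cellulates by a bound. Of all genes compared, 6.02% were lower in BIO cellulates and 10.1% in neurogenic cellulates. In BIO and neurogenic cellulates, the other Anln probe differed from myoblasts by -0.85 and -0.67, and the other Kif23 probe by -2.86 and -2.64. The other Ect2 probe was well above background in neurogenic cellulates alone. Kif20a, the motor that brings Plk1 and the passenger complex to the central spindle, had levels of 4.01 in neurogenic cellulates, 4.47 in BIO cellulates and 7.39 in myoblasts. It was 10.4-fold lower in neurogenic cellulates than in myoblasts, the lowest ratio of any member in that comparison. Kif23 and Racgap1 form the centralspindlin complex. Kif23 had levels of 0.45, 0.52 and 3.24, and Racgap1 had levels of -0.54, -0.74 and 2.09. Ect2, which activates RhoA at the division plane, had levels of -2.21, -2.10 and -0.99, a smaller difference of 2.17-fold between BIO cellulates and myoblasts. The calls of Ect2 and of Cdc25c, both just past 2-fold, were lost with normexp and with the percentile taken over probes above background in both comparisons with myoblasts. In neurogenic cellulates they were also lost with spike-in scaling. The contractile ring scaffold Anln had levels of -0.41, 0.18 and 2.64, with a neurogenic over BIO log2 ratio of -0.59. Gas2l3, a linker of actin and microtubules, had levels of a dim -2.55 in neurogenic cellulates, -1.96 in BIO cellulates and 0.05 in myoblasts. Its bound of -0.60 was the lowest neurogenic over BIO value of any member. Cep55, which recruits the abscission machinery, was dim on every array.

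Probes of the same gene did not always give the same answer. Of 20 members with more than 1 probe, 7 had at least 2 probes well above background on both the BIO and the myoblast array. In 4 of these 7 the probes were at least 2-fold apart in their difference: Bub1, Cdca8, Ncapd2 and Anln. The other 3, Smc2, Kif23 and Cdc25c, were closer, and Kif23 probes differed by 0.13. Between neurogenic cellulates and myoblasts, 6 of 8 members with at least 2 measured probes had probes at least 2-fold apart. These were Bub1, Cdc25b, Cdca8, Ncapd2, Hmmr and Anln. Between the cellulate cultures it was 1 of 6, Cdca8. The other Cdca8 probe had levels of 0.05 in neurogenic cellulates, -1.51 in BIO cellulates and -1.05 in myoblasts, a neurogenic minus BIO difference of 1.55 where the brighter probe gave -0.34. The other Ncapd2 probe had levels of 0.05, -0.65 and -0.82, and the other Anln probe -1.25, -1.43 and -0.58. For Ect2 the other probe was dim at -4.72 in BIO cellulates and -5.68 in myoblasts and stood at -2.15 in neurogenic cellulates. Ncapg had another probe of this kind, at -0.78 in neurogenic cellulates against dim levels of -3.43 in BIO cellulates and -4.98 in myoblasts, and so did Mki67, at -2.02 against -3.62 and -4.12. The other Racgap1 probe was dim throughout, at -3.26, -4.93 and -5.22. These 5 genes, Cdca8, Ect2, Ncapg, Mki67 and Racgap1, were chosen after their values were seen, and in each the dimmer probe gave a higher neurogenic minus BIO difference than the brighter one.

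Probes of a gene were also combined by their median, leaving out probes dim on both arrays of a comparison. The calls of Cdc25c and Ncapd2 as lower than in myoblasts were then lost in both cellulate cultures. Those of Cdca8, Mki67, Ncapg and Ect2 were lost in neurogenic cellulates, and Bub1 came to be called lower in BIO cellulates. The remaining members with several probes were mixed. The dimmer Cenpe probes were dim on every array, at -2.43 in neurogenic cellulates, -2.50 in BIO cellulates and -5.25 in myoblasts for the nearer one, so the higher neurogenic level of Cenpe rests on 1 probe. The other Hmmr probe had levels of -1.95, a dim -2.61 and -1.95. For Cdc25b, one further probe had levels of -2.04, a dim -2.90 and -3.20, and another a dim -3.50, a dim -3.02 and -0.80. Over all genes whose main probe was well above background on every array, 2350 further probes were dim on both the BIO and the myoblast array. Of these, 16.6% were at least 2-fold higher on the neurogenic than on the BIO array, beside 1.83% of the main probes of the same genes. In BIO cellulates against myoblasts the shares were 53.15% and 8.43%, so dim probes read higher there too. In neurogenic cellulates against myoblasts they were 71.7% and 8.77%. Such probes were taken for being dim on the BIO and the myoblast array. Of the 6 probes of members that met this rule, 3 gave a higher neurogenic minus BIO difference than the main probe, and so did 1671 of the 2350. All 6 were at least 2-fold higher on the neurogenic than on the myoblast array. Aurka, Birc5, Incenp, Smc4 and Tpx2 each have a single named probe, dim in BIO cellulates, and the part of this probe pattern in their higher neurogenic signal was not tested. With normexp background correction, the log2 ratios of neurogenic against BIO cellulates came to 0.95 for Aurka, 0.77 for Cenpe, 0.48 for Smc4 and 0.66 for Tpx2, below 2-fold, while Birc5 and Incenp stayed above it.

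**Figure D3:**
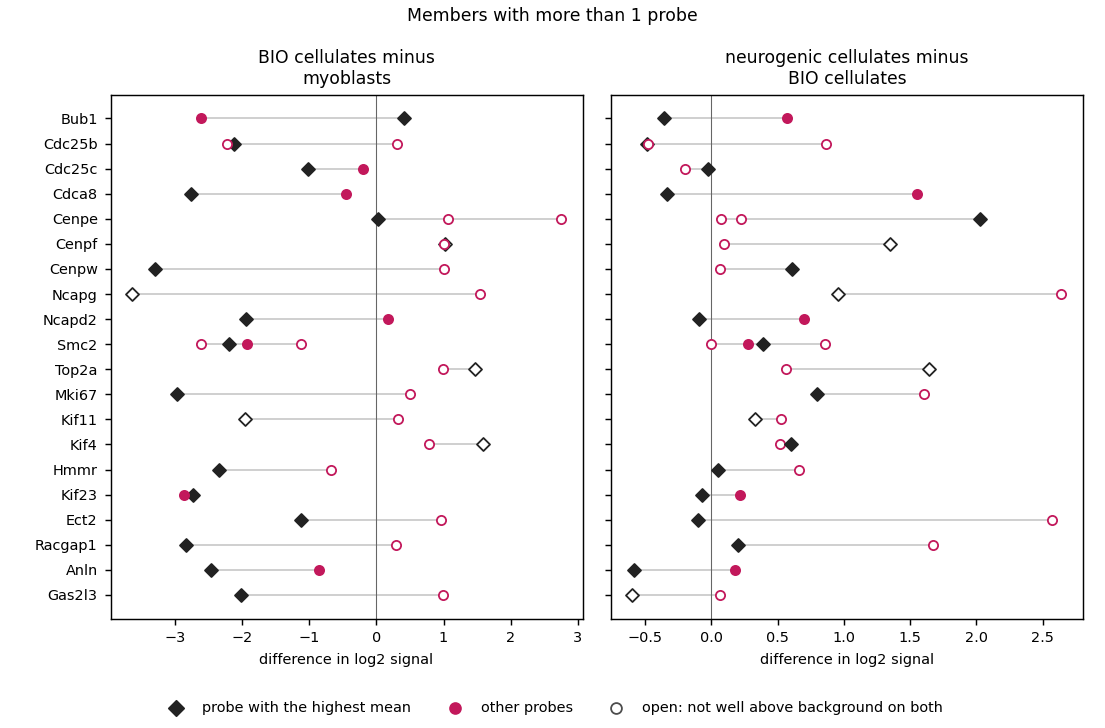
Difference in log2 signal (x axis) for each probe of the 20 members with more than 1 probe, BIO cellulates minus myoblasts on the left and neurogenic minus BIO cellulates on the right. Diamonds are the probes with the highest mean, circles the others, and open symbols were not well above background on both arrays. On the left most diamonds lie below -1 while many circles lie near 0 or above, and on the right the circles of Ncapg, Ect2, Racgap1, Mki67 and Cdca8 lie 1.55 or more above 0 and above their diamonds.

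Late cell-cycle promoters often carry the cell cycle genes homology region, a short element with the letters TTTGAA or TTCGAA, bound by the MuvB complex, together with CCAAT boxes bound by NF-Y. These letters were searched on both strands in RefSeq promoter windows (GRCm38.p6) that run from 250 bases before to 50 bases after each annotated start, and 43 of the 51 genes had a window. TTTGAA or TTCGAA occurred in 32 of the 43 (74.4%), against 21.7% of all 27025 genes with a window. CCAAT occurred in 30 (69.8%), against 41.1% of all genes, and both together in 28 (65.1%), against 8.61%. A match to TTTGAA or TTCGAA that started within 40 bases of the annotated start was found in 28 members (65.1%), against 5.20% of all genes. A match of letters is a description and not a bound site.

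Promoter letters are shown as the 100 bases before the annotated start, 5′ to 3′. They are given for some of the genes that were lower in both cellulate cultures by the probe used and carry the element before the start. Other members, such as Gas2l3 and Kif11, also met this description and are not shown. For Ncapg the direction in neurogenic cellulates depends on the probe. Letters of 2 members without the element are also given. Capitals mark TTTGAA or CCAAT on either strand, so TTCAAA and ATTGG are the same letters read from the opposite strand, and in Cenpw the 2 overlap.
Cdc20 (chr4:118437344-118437443, minus strand): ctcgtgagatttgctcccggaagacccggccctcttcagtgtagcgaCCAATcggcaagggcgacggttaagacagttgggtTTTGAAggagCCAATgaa
Espl1 (chr15:102296193-102296292, plus strand): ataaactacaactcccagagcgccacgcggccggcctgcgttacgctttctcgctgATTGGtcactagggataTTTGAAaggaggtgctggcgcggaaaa
Ube2c (chr2:164769829-164769928, plus strand): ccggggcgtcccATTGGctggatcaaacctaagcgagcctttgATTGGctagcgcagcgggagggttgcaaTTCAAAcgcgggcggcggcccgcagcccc
Cenpw (chr10:30200541-30200640, minus strand): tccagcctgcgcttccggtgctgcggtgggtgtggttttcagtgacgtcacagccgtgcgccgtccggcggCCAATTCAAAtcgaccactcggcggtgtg
Kif22 (chr7:127042421-127042520, minus strand): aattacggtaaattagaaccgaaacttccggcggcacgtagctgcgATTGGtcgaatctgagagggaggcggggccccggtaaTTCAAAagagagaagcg
Ncapg (chr5:45669825-45669924, plus strand): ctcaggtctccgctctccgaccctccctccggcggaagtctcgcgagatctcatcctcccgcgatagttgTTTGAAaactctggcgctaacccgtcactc
Nuf2 (chr1:169531465-169531564, minus strand): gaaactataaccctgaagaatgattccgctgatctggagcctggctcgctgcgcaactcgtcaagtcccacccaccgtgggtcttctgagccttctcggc
Pttg1 (chr11:43425982-43426081, minus strand): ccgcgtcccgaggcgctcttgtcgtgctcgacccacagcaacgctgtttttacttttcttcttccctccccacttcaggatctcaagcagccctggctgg

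In the printed stretches the first base of the element lies 18 bases before the start in Cdc20, 27 in Espl1, 29 in Ube2c, 25 in Cenpw, 17 in Kif22 and 30 in Ncapg. Nuf2, higher in both cellulate cultures, and Pttg1, with the lowest BIO over myoblast ratio of the brighter members, hold neither motif in the whole window. Members with and without the element both held genes in each direction against myoblasts. Of 26 compared members with it, 22 were at least 2-fold lower in BIO cellulates than in myoblasts and their median log2 ratio was -2.40, and of 10 without it, 7 were lower with a median of -2.51, with 1 higher in each set. In neurogenic against BIO cellulates 1 of 26 with it and 2 of 9 without it were higher and 0 of either lower. Incenp, Smc4 and Tpx2, also at least 2-fold higher in that comparison, had no promoter window and belong to neither set. In neurogenic cellulates against myoblasts 22 of 29 with it were lower and 4 higher, and 6 of 10 without it were lower and 3 higher. Over all genes compared, the shares lower and higher were 6.02% and 11.3% for BIO cellulates against myoblasts. They were 1.79% and 4.17% for neurogenic against BIO cellulates, and 10.1% and 12.2% for neurogenic cellulates against myoblasts. The differences between members with and without the element were not tested.

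**Figure D4:**
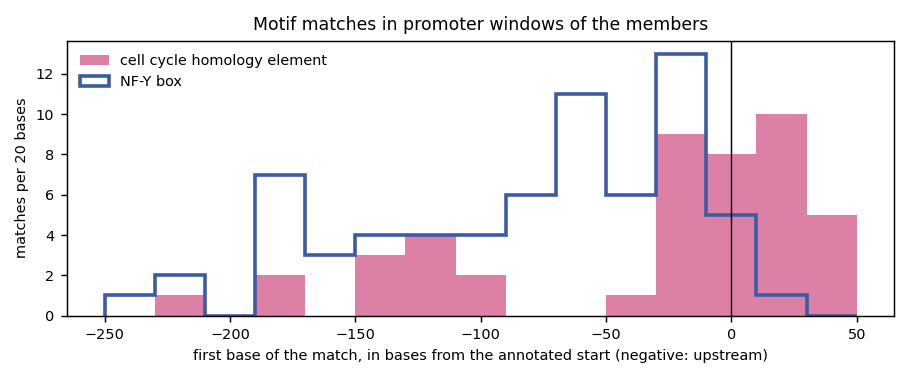
Position of the first base of each motif match (x axis, bases from the annotated start, negative upstream) in the 46 promoter windows of 43 members, with the number of matches per 20 bases on the y axis. Filled bars are the cell cycle homology element on either strand, the outline is the NF-Y box on either strand, and 3 genes with 2 windows count in both. Of 45 matches to the homology element, 32 start within 40 bases of the annotated start, while NF-Y boxes lie mostly upstream of it.

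Further genes of the pathway followed the members in part. For the counts of all 6 further lists, the shares of all genes compared are these. In BIO cellulates against myoblasts 6.02% were at least 2-fold lower and 11.3% higher. In neurogenic against BIO cellulates 1.79% were lower and 4.17% higher, and in neurogenic cellulates against myoblasts 10.1% and 12.2%. Of 37 other inner and outer kinetochore genes, 21 could be compared between BIO cellulates and myoblasts, and 13 were at least 2-fold lower and 1 higher (median log2 ratio -1.50). Cenpt, which links the inner centromere to the outer plate, had levels of -1.04 in neurogenic cellulates, -1.03 in BIO cellulates and 1.77 in myoblasts. Cenpu, of the same inner network, had levels of 0.44, 0.51 and 3.11. The higher one was Cenpx, with levels of -0.85, -1.04 and -2.32. Zwint, a partner of the outer kinetochore, gave a BIO over myoblast log2 ratio of 0.49. In neurogenic against BIO cellulates 0 of 19 were at least 2-fold lower and 2 higher, the checkpoint gene Mad1l1 (at least 2.25-fold) and the shugoshin gene Sgo1 (log2 ratio 1.05). Against myoblasts, 13 of 22 were lower and 2 higher in neurogenic cellulates.

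Mitotic entry genes had a median log2 ratio of -2.03 in BIO cellulates against myoblasts, and 10 of 16 genes were past 2-fold downward and 1 upward. Ccnb1, the mitotic cyclin, had levels of 0.88 in neurogenic cellulates, 1.38 in BIO cellulates and 4.79 in myoblasts. Mastl, the Greatwall kinase that restrains the counteracting phosphatase, had levels of -0.46, -0.35 and 2.53. Both genes were lower in both cellulate cultures than in myoblasts. Cdkn3, a phosphatase of Cdk1 and Cdk2, was the higher one, with levels of -1.68, -1.78 and -3.23, and Arpp19, a Greatwall substrate, gave a log2 ratio of 0.37. Ccnb2 resembled Cenpe, with levels of -0.09, -2.06 and -2.04. It was the 1 of 17 entry genes at least 2-fold higher in neurogenic than in BIO cellulates, and 0 of 17 were lower. In neurogenic cellulates against myoblasts 10 of 17 were lower and 3 higher (median -1.98).

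Other spindle and cytokinesis genes had a median of -1.59 in BIO cellulates against myoblasts, and 11 of 16 were past 2-fold downward and 0 upward. The astral microtubule gene Spag5 (log2 ratio -2.83) and the cytokinesis kinesin gene Kif20b (-2.81) were lowest, and Kif5b (0.38), a cargo kinesin that serves outside mitosis, and Kif24 (0.92), a centriolar kinesin, were highest. In neurogenic against BIO cellulates 0 of 15 differed by 2-fold, and against myoblasts 10 of 16 were lower and 0 higher.

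Genes for machinery that also works outside mitosis differed less. Of 16 subunits and partners of the anaphase promoting complex, only Anapc1 (log2 ratio -1.63) was at least 2-fold lower in BIO cellulates than in myoblasts, with 0 higher and a median of -0.57. Anapc15 gave -0.97, and Cdc27 (0.44) and Anapc16 (0.35) were highest. Against myoblasts, 7 of 16 were at least 2-fold lower in neurogenic cellulates (median -0.93), and against BIO cellulates 0 of 16 differed by 2-fold. The 10 cohesin genes compared had a median of -0.55 in BIO cellulates against myoblasts, with 2 of 10 lower and 0 higher: Esco2 (-2.34), the S-phase cohesin acetyltransferase, and Rad21 (-1.26), the subunit that separase cuts. The condensin II genes Ncapd3 and Ncapg2 were dim on every array. Wapl, the cohesin release factor, gave 0.08 and Esco1, an acetyltransferase active through the cycle, 0.55. In neurogenic cellulates 4 of 10 were lower than in myoblasts and 0 of 10 differed by 2-fold from BIO cellulates.

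Among 16 measured transcriptional regulators of G2 and M genes, 6 were at least 2-fold lower and 1 higher in BIO cellulates than in myoblasts (median -0.39). Foxm1, a forkhead activator of these promoters, had levels of 2.16 in neurogenic cellulates, 2.23 in BIO cellulates and 4.39 in myoblasts. Rbl1, the p107 gene, had levels of 1.21, 1.01 and 2.58. Rbl2, the p130 subunit of the repressing DREAM complex, was at least 3.11-fold higher in BIO cellulates than in myoblasts, by a probe dim in myoblasts and in neurogenic cellulates. Lin37, a MuvB subunit, gave a log2 ratio of 0.40. The activator gene Mybl2 differed little, with levels of 0.10, 0.15 and 0.40. In neurogenic cellulates 6 of 15 were lower than in myoblasts with 0 higher, and 0 of 16 differed by 2-fold from BIO cellulates.

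**Figure D5:**
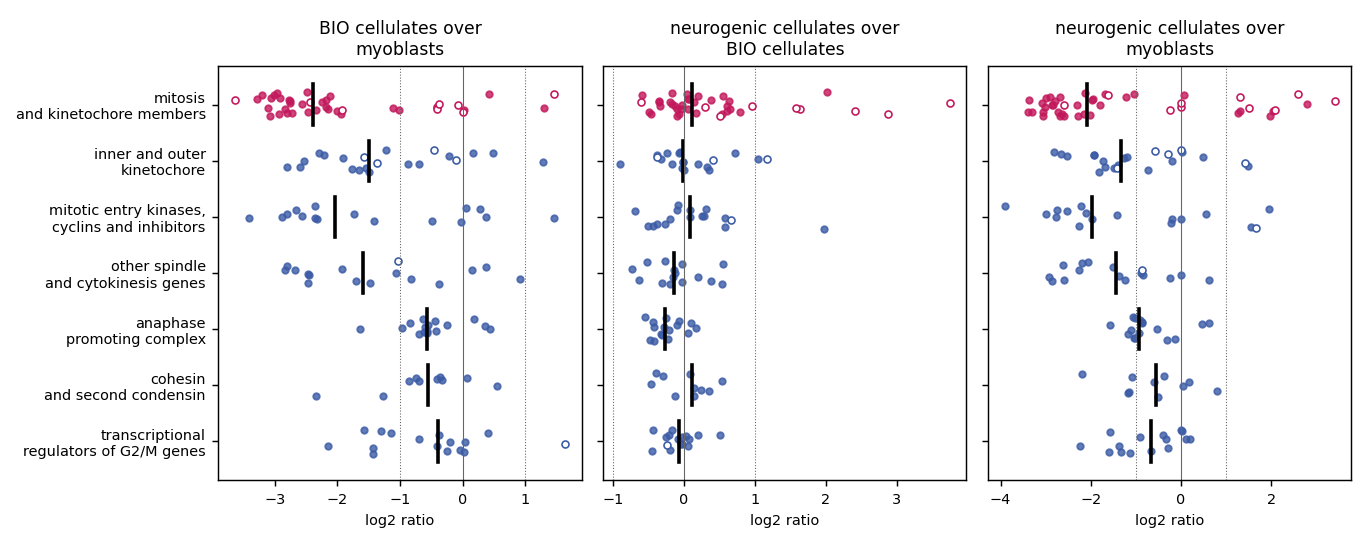
Log2 ratio (x axis) of each gene of the members and of 6 further lists (rows) in the 3 comparisons; black bars are list medians, open points are bounds and dotted lines mark 2-fold. The members have medians of -2.39, 0.11 and -2.08 from left to right, the entry genes follow them closely, and the anaphase promoting complex and cohesin lists lie nearer to 0.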

How the data were processed

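The members and lists were chosen with earlier results of these data known. Per the file headers, the authors' scanner files come from Feature Extraction 10.7.3.1 and hold linear, background-subtracted intensities of single spots (array design 014868, build mm9); per the labels, 200 ng RNA was labelled with Cy3. The authors' deposited value table is log2: each column equals log2 intensity plus a constant of 0.23 (neurogenic), 0.67 (BIO) and 0.00 (myoblasts), with medians of 7.88, 7.77 and 7.42; the reason for the constants is unknown, and genes are not centred.

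Control and outlier spots were left out, spots of a probe averaged, and each log2 intensity was set against its array's 75th percentile (156, 115 and 181 units). Accessions without version matched 26918 of 41174 probes to the GRCm38.p6 RefSeq table. Where probes of a gene differed, the one brightest on average over the 3 arrays was used. That average includes the myoblast level, so the choice is not independent of the ratios against myoblasts. A bound sets the measured signal against the higher of the dim signal and the array's lowest signal well above background. Named genes were all 51 members, by role, and the 2 lowest and 2 highest of each further list in BIO cellulates against myoblasts; Ccnb2, Mad1l1, Sgo1 and Mybl2 were named after their values were seen, as were Ncapd3 and Ncapg2. The ratio code was tested on simulated data. Normexp used limma 3.58.1 on median spot and background intensities, since the files hold no mean signal.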

Additional observations from a re-analysis of the deposited data

How the results depend on the processing

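Lower counts held in all 11 alternatives, 27 to 34 members (31 as reported) for BIO cellulates against myoblasts and 24 to 31 (30) for neurogenic cellulates against myoblasts, and 0 throughout for neurogenic against BIO cellulates. Of 33, 6 and 40 members past 2-fold in the 3 comparisons (BIO against myoblasts, neurogenic against BIO, neurogenic against myoblasts), 26, 2 and 27 kept direction and side of 2-fold under every alternative that gave them a value. The cause of the following shifts was not tested beyond fewer genes entering where a filter is stricter.

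Higher counts were fragile. For BIO cellulates against myoblasts (2 as reported) they were 0 with median scaling, quantile normalisation or normexp, 1 in the deposited table or with genes above background on both or on all 3 arrays, and 6 with no filter. For neurogenic against BIO cellulates (6) they were 1 in the deposited table and with genes above background on both or on all 3 arrays, 2 with normexp and 12 with no filter. For neurogenic cellulates against myoblasts (10) they were 5 in the deposited table, with both arrays and with normexp, 2 with all 3 arrays and 6 with median scaling. The median log2 ratio for BIO cellulates against myoblasts was -2.65 with all 3 arrays, -2.01 with normexp and -3.11 with median scaling. For neurogenic against BIO cellulates it was 0.47 with spike-in scaling. For neurogenic cellulates against myoblasts it was -1.75 with the percentile over probes above background, -2.44 in the deposited table, -2.46 with both arrays, -2.62 with all 3 arrays, -1.58 with the median over probes, -1.72 with normexp, -1.85 with spike-ins and -2.81 with median scaling. With the median over probes, Ncapg (0.14) and Ect2 (0.18) turned sign in neurogenic cellulates against myoblasts.

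Median scaling moved the median of all genes to -0.79 for neurogenic and -0.65 for BIO cellulates, each against myoblasts, and the share of higher genes among those past 2-fold to 11.5% and 9.24%, where 54.8% and 65.3% were reported; the members' median relative to all genes was then -2.02 and -2.45, where -2.02 and -2.39 were reported. In BIO cellulates against myoblasts that share was 77.2% with the percentile over probes above background, 53.8% with spike-ins, 50.3% with quantiles and 29.1% with normexp; in neurogenic cellulates against myoblasts it was 77.7%, 71.7%, 55.2% and 31.3%; and in neurogenic against BIO cellulates, where 70.0% was reported, 82.3%, 91.9%, 73.8% and 74.2%. Restricting to all 3 arrays and choosing probes on the myoblast and BIO arrays were added after seeing the data, and this choice of probes changed no count of members. No paired analysis was possible because each group has 1 array and the labels give no replicate numbers. Signal near background limits every dim member, and the number of arrays limits all values.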
